A study of Mus musculus with 14 samples.

Results

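Genes that mark monocytes and neutrophils were followed across aorta and liver. They are Ly6c2, Ly6c1, Plac8, Csf3r, Itgam, S100a8, S100a9 and Chil3, found by symbol in both count tables, and make up 8 of 24732 features. The genes were chosen from what they are known to mark and on the genotype differences already seen in these libraries. Those differences are therefore described and not tested. Differences between the tissues are tested, but a tissue call found in a single genotype draws on the same differences and is a description. RNA came from HuBL mice and from mice labelled BT3xHuBL, all on a normal laboratory diet for 52 weeks. Of the 14 libraries, 6 were from aorta (3 of each genotype) and 8 from liver (4 of each genotype), which makes 4 groups. The labels give the names without an explanation. From earlier studies with such mice, HuBL stands for a human apolipoprotein B transgene in animals that lack the LDL receptor, and BT for lines with a T cell receptor transgene directed at apolipoprotein B, so all groups would share the former. The sources used here give no age at the start of the diet, sex, number of animals or transgene promoter.

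Monocytes and neutrophils are short-lived cells that the bone marrow releases into the blood and that enter inflamed vessel wall and liver. Classical monocytes carry high Ly6C on their surface and give rise to many macrophages of atherosclerotic plaques, whereas neutrophils are packed with the calcium-binding pair S100A8 and S100A9. The 8 genes are not private to these cells: Ly6c1 is also made by endothelial cells, Itgam by macrophages and natural killer cells, Chil3 by alternatively activated macrophages and Plac8 by lymphoid and epithelial cells. In whole tissue, fewer cells of a type and less RNA per cell cannot be told apart.

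Depth ranged from 41933263 to 65539765 counts in the aortas and from 13228123 to 17992459 in the livers. The summed level of 8 smooth muscle genes was 9441 to 12990 CPM (counts scaled to a common library total) in aortas and 166 to 218 CPM in livers, and that of 8 hepatocyte genes 16.4 to 50.6 CPM and 146800 to 195600 CPM, so every library carried the markers of its labelled tissue. Counts of a T cell receptor segment, Trav14-1, picked after its values were seen, were found in 5 of 7 BT3xHuBL and 0 of 7 HuBL libraries. BT3xHuBL aortas held 4, 52 and 0 counts of it, and BT3xHuBL livers 1, 1, 0 and 2. All alpha and beta variable segments together gave 298 to 516 counts per aorta and 2 to 16 per liver. On so few reads, its presence or absence in a liver says little about the label. The exceptions, BT3xHuBL aorta 3 and BT3xHuBL liver 3, had 0 counts, so this segment does not check their genotype labels, and each gene's genotype difference within the tissue is given with and without them. Whether each library is another animal is not in the labels, so a p-value here speaks of the spread between these libraries, which may be technical.

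Ly6c2 and Ly6c1 lie beside each other on chromosome 15, and S100a8 and S100a9 beside each other on chromosome 3. In GENCODE M21 (GRCm38) Ly6c2 is at chr15:75108158-75111970 and Ly6c1 at chr15:75044018-75048830, both on the minus strand. S100a8 is at chr3:90668978-90670035 on the plus strand, S100a9 at chr3:90692632-90695721 and Chil3 at chr3:106147554-106167564, both on the minus strand. Plac8 is at chr5:100553725-100572245 on the minus strand, Csf3r at chr4:126024550-126044440 and Itgam at chr7:128062640-128118491, both on the plus strand. All 8 are protein-coding. The Ly6c1 and Ly6c2 transcripts agreed at 97.6% of 822 aligned bases and at 98.0% in their last 300 bases, where this 3′ end assay reads, so the split of counts between these near copies is uncertain. Chil3 and its near copy Chil4 agreed at 94.7% of aligned bases, and S100a8 and S100a9 at 72.5%.

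The promoters of the 5 genes whose levels stood furthest apart between genotypes are shown because 1 neighbouring pair, S100a8 and S100a9, varied together from library to library and the other, Ly6c1 and Ly6c2, did not. They come from RefSeq (GRCm38.p6), where all 8 genes were found, and run from 250 bases before the gene's start to 50 bases after it, on the gene's own strand, 5′ to 3′. The intervals are chr15:75111922-75112221 (minus) for Ly6c2, chr15:75048788-75049087 (minus) for Ly6c1, chr3:90668821-90669120 (plus) for S100a8, chr3:90695672-90695971 (minus) for S100a9 and chr3:106167515-106167814 (minus) for Chil3. Capitals mark matches on either strand to 3 motifs. The first, TATAAA, is the box that positions the start of transcription in many promoters (called the TATA box hereafter). The second is GAGGAA, the core bound by PU.1, a master factor of myeloid cells, which reads in reverse complement where it lies on the other strand. The third is TTGCNNAA, a motif of C/EBP factors.
Ly6c2: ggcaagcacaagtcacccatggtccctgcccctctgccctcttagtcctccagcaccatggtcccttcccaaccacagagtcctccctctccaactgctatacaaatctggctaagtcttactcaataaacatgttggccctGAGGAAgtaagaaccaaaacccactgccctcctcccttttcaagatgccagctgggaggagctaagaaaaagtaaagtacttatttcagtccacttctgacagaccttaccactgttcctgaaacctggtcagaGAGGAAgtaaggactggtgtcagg
Ly6c1: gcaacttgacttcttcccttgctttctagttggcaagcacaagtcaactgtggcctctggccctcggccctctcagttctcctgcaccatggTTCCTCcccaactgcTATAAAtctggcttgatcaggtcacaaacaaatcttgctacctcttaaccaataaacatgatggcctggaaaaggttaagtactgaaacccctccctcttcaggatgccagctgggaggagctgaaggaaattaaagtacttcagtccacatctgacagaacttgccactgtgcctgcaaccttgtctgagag
S100a8: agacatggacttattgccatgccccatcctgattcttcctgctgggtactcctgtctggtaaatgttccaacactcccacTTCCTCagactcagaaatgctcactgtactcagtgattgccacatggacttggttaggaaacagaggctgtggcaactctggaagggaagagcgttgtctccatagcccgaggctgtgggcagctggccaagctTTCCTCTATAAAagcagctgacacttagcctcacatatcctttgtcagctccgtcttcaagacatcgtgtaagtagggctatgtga
S100a9: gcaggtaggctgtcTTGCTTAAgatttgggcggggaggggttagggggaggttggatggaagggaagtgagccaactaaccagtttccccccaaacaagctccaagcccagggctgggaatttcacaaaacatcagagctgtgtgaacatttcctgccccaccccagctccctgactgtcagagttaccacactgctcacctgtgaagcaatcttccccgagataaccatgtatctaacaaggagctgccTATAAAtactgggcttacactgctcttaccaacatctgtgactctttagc
Chil3: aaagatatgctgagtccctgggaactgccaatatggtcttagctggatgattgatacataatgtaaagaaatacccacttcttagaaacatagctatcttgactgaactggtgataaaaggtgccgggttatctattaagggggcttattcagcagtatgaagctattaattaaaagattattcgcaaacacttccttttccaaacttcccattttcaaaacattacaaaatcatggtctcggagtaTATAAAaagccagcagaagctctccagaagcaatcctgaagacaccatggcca
A TATA box match was found in 4 of the 8 promoters (Ly6c1, S100a8, S100a9 and Chil3), against 13.6% of 32851 promoters of the same length. It began 30 bases before the RefSeq start in S100a8, 143 before it in Ly6c1, 3 before it in Chil3 and at the start itself in S100a9. A PU.1 core was found in 6 of 8 (all but S100a9 and Chil3), against 28.3% of all promoters, and the C/EBP motif in 1 of 8 (S100a9), against 10.8%. No match overlapped another, although a PU.1 core and the TATA box abut in S100a8. The Ly6c1 and Ly6c2 promoters agreed at 82.3% of aligned bases, and the TATA box match was present in the former alone of this pair. These matches describe the letters in the windows and were not tied to any measured binding.

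In the aorta, Ly6c2 lay lower and Chil3 higher in every BT3xHuBL library than in every HuBL library. S100a8 and S100a9 were high in 2 of 3 BT3xHuBL aortas, and Ly6c1, Itgam, Csf3r and Plac8 differed little. Groups did not overlap for 2 of the 8 genes, beside 9.42% of 15400 genes tested. No gene of the set was among the 4 genes (0.026%) called by edgeR's quasi-likelihood test at an adjusted p under 0.05; 2 of the 8 (Ly6c2 and Chil3) had an unadjusted p under 0.05, beside 629 of all genes tested (4.08%), and DESeq2 called both, beside 68 of 15382 (0.442%). All 8 passed the filter on low counts in each tissue. Since the set was chosen with this contrast known, nothing is read from these counts. Levels below are CPM on 1 scale for all 14 libraries, and genotype differences are edgeR's log2 fold changes of BT3xHuBL against HuBL within a tissue, with the standard error (SE).

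**Figure D1:**
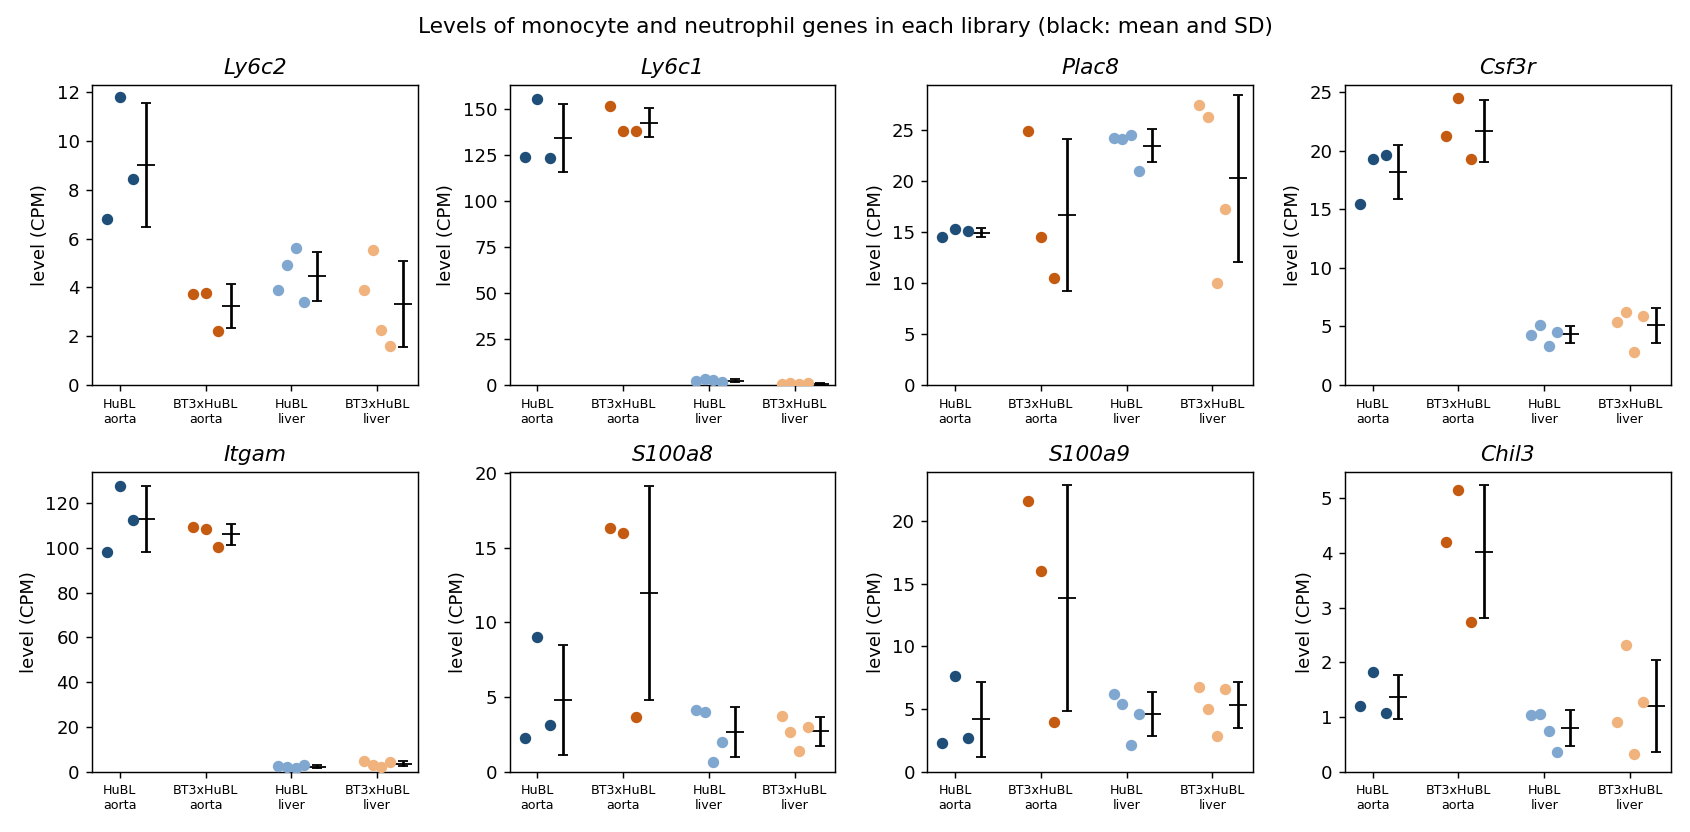
Level of each gene in each of the 14 libraries (CPM, linear axes starting at 0), by genotype and tissue, with points for libraries and black bars for the mean and SD of each group. Ly6c2 and Chil3 separate the aortas by genotype in opposite directions, and S100a8 and S100a9 are high in the same 2 BT3xHuBL aortas.

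Ly6c2 encodes the form of the Ly6C surface antigen that marks classical monocytes. In the aorta it measured 6.79, 11.8 and 8.44 CPM in the HuBL libraries and 3.74, 3.79 and 2.20 CPM in the BT3xHuBL libraries. The highest BT3xHuBL value lay below the lowest HuBL value, and the group means were 9.01 ± 2.55 and 3.24 ± 0.902 CPM (SD, n = 3 each). The log2 fold change was −1.48 (SE 0.26), against −1.27 without BT3xHuBL aorta 3. The livers measured 3.91, 4.94, 5.61 and 3.39 CPM in HuBL, against 3.91, 5.54, 2.27 and 1.58 CPM in BT3xHuBL. Here the genotypes overlapped, and the log2 value was −0.42 (SE 0.36), changing to −0.27 without BT3xHuBL liver 3. Its order of group means was HuBL aorta, HuBL liver, BT3xHuBL liver, BT3xHuBL aorta, and the last 3 overlapped.

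Ly6c1, the near copy of Ly6c2 that vascular endothelium also makes, showed the reverse layout. Aortas measured 124, 156 and 123 CPM in HuBL, against 152, 138 and 138 CPM in BT3xHuBL, with overlapping genotypes and a log2 fold change of 0.08 (SE 0.10). Leaving out BT3xHuBL aorta 3 gave 0.10. Livers measured 1.99, 3.10, 2.71 and 1.41 CPM in HuBL, against 0.376, 1.24, 0.568 and 0.905 CPM in BT3xHuBL. All 4 BT3xHuBL livers lay below all 4 HuBL livers, on counts of 5 to 15 against 20 to 32 per library. The liver log2 fold change was −1.56 (SE 0.39), and −1.44 without BT3xHuBL liver 3. Ly6c1 was the 1 gene of 8 whose liver groups did not overlap, beside 6.5% of 12453 genes tested. The group order was BT3xHuBL aorta, HuBL aorta, HuBL liver, BT3xHuBL liver, with overlap between the first pair alone.

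In the liver as a whole edgeR called 0 of the 8 genes and 0 of 12453 genes (0.0%), with 1381 genes (11.1%) and 1 of the 8 (Ly6c1) at an unadjusted p under 0.05. DESeq2 called 133 of 12197 genes in the liver (1.09%), among them Ly6c1. This contrast too was known when the genes were chosen, and nothing is read from these calls.

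The ratio of Ly6c1 to Ly6c2 counts depends on neither depth nor scaling, and both transcripts are read near their 3′ ends without a correction for length. It was 13.2 to 18.3 in HuBL aortas and 36.6 to 62.7 in BT3xHuBL aortas. Livers gave 0.417 to 0.628 in HuBL and 0.0962 to 0.571 in BT3xHuBL. The aorta ranges did not overlap and the liver ranges did, so the near copies were not counted in 1 fixed proportion.

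Plac8 encodes a small cysteine-rich protein of myeloid and lymphoid cells. Its aorta levels were 14.4, 15.3 and 15.1 CPM in HuBL, against 24.9, 14.5 and 10.5 CPM in BT3xHuBL, and its liver levels 24.2, 24.1, 24.5 and 20.99 CPM in HuBL, against 27.4, 26.3, 9.99 and 17.3 CPM in BT3xHuBL. HuBL libraries lay close together in each tissue, while BT3xHuBL libraries spread above and below them. The coefficient of variation was 2.85% and 44.8% in HuBL and BT3xHuBL aortas, and 7.02% and 40.5% in the livers; this difference in spread was not tested. Log2 fold changes were 0.14 (SE 0.32) in the aorta and −0.21 (SE 0.27) in the liver. Without BT3xHuBL aorta 1 the aorta value was −0.26 and without BT3xHuBL aorta 3 it was 0.39, and without BT3xHuBL liver 3 the liver value was 0.02, so 1 library set the sign in each tissue.

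Csf3r encodes the receptor for granulocyte colony-stimulating factor, the growth factor of neutrophils. Aortas measured 15.5, 19.3 and 19.6 CPM in HuBL, against 21.2, 24.5 and 19.3 CPM in BT3xHuBL. Livers measured 4.31, 5.13, 3.37 and 4.52 CPM in HuBL, against 5.42, 6.20, 2.84 and 5.88 CPM in BT3xHuBL. Genotypes overlapped in both tissues, with log2 fold changes of 0.25 (SE 0.12) and 0.23 (SE 0.25). Without BT3xHuBL aorta 3 the aorta value was 0.33, and without BT3xHuBL liver 3 the liver value was 0.43.

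Itgam encodes the αM chain of the integrin Mac-1 (CD11b), by which myeloid cells adhere and take up complement-coated particles. Its aorta levels were 98.3, 128 and 113 CPM in HuBL, against 109, 108 and 100.4 CPM in BT3xHuBL, a log2 fold change of −0.10 (SE 0.10). In the livers it measured 2.63, 2.03, 1.59 and 3.04 CPM in HuBL, against 4.67, 2.98, 2.19 and 4.22 CPM in BT3xHuBL, a log2 fold change of 0.59 (SE 0.29), with 2 BT3xHuBL livers above every HuBL liver. Without BT3xHuBL aorta 3 the aorta value was −0.06, and without BT3xHuBL liver 3 the liver value was 0.76. Itgam counts per Csf3r count were 5.74 to 6.61 in HuBL aortas and 4.42 to 5.20 in BT3xHuBL aortas, ranges that did not overlap. In the livers they overlapped and ran the other way, at 0.396 to 0.672 in HuBL and 0.480 to 0.861 in BT3xHuBL. The ratio of Chil3 to S100a8 counts overlapped between genotypes in both tissues. How often such ratios separate the genotypes among all genes was not tested.

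S100a8 and S100a9 encode the subunits of calprotectin, an alarmin that binds metals and is stored in neutrophils. S100a8 measured 2.27, 9.04 and 3.13 CPM in HuBL aortas and 16.3, 15.96 and 3.69 CPM in BT3xHuBL aortas. S100a9 measured 2.29, 7.62 and 2.66 CPM in HuBL aortas and 21.6, 15.98 and 3.98 CPM in BT3xHuBL aortas. For both genes BT3xHuBL aortas 1 and 2 stood above all others, HuBL aorta 2 came next, and BT3xHuBL aorta 3 lay among the HuBL range, so the genotypes overlapped. Group means for S100a8 were 4.81 ± 3.68 CPM (HuBL) and 11.98 ± 7.18 CPM (BT3xHuBL; SD, n = 3 each), which is 1.32 (SE 0.86) on the log2 scale. For S100a9 they were 4.19 ± 2.98 and 13.9 ± 8.99 CPM, or 1.73 (SE 0.87). With 1 aorta left out in turn, S100a8 ran from 0.97 (without HuBL aorta 1) to 2.15 (without HuBL aorta 2) and S100a9 from 1.26 (without BT3xHuBL aorta 1) to 2.48 (without HuBL aorta 2). Without BT3xHuBL aorta 3 the values were 1.75 and 2.17.

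Liver levels of the pair were low and overlapped between genotypes. S100a8 measured 4.15, 3.97, 0.655 and 1.98 CPM in HuBL, against 3.76, 2.64, 1.38 and 3.02 CPM in BT3xHuBL. S100a9 measured 6.22, 5.42, 2.15 and 4.59 CPM in HuBL, against 6.77, 5.04, 2.84 and 6.64 CPM in BT3xHuBL. The third library was the lowest of its genotype for both genes, and log2 fold changes were 0.02 (SE 0.48) for S100a8 and 0.21 (SE 0.34) for S100a9, or 0.23 and 0.42 without BT3xHuBL liver 3. S100a9 counts per S100a8 count were 0.844 to 1.01 in HuBL aortas, 1.00 to 1.33 in BT3xHuBL aortas, 1.37 to 3.29 in HuBL livers and 1.80 to 2.20 in BT3xHuBL livers. Every liver thus had a higher ratio than every aorta, but the nearest libraries lay close, at 1.325 in BT3xHuBL aorta 1 and 1.366 in HuBL liver 2. The liver ratios rest on 7 to 52 S100a8 counts per library.

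**Figure D2:**
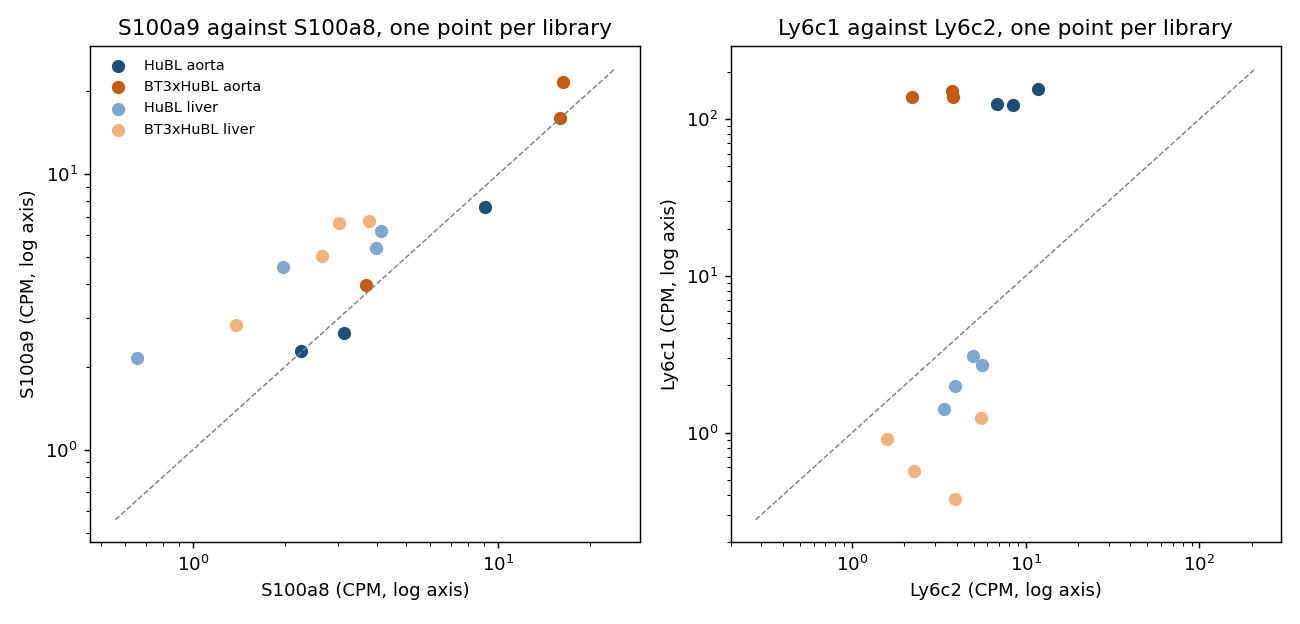
Left, S100a9 against S100a8, and right, Ly6c1 against Ly6c2, in CPM on log axes with 1 point per library, coloured by group, and a dashed line at equal levels. The S100 pair runs along the line, with livers above it, whereas Ly6c1 stays at 123 to 156 CPM in aortas while Ly6c2 falls from 11.8 to 2.20 CPM across them.

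Chil3 encodes Ym1, a chitinase-like lectin made by some neutrophils, monocytes and alternatively activated macrophages. It measured 1.20, 1.82 and 1.08 CPM in HuBL aortas and 4.19, 5.15 and 2.73 CPM in BT3xHuBL aortas, on 92 to 105 and 226 to 465 counts per library. The lowest BT3xHuBL aorta lay above the highest HuBL aorta, and the group means were 1.37 ± 0.398 and 4.03 ± 1.22 CPM (SD, n = 3 each). The log2 fold change was 1.55 (SE 0.29), and 1.77 without BT3xHuBL aorta 3. In that setting edgeR called 27 of 15681 genes (0.172%), Chil3 among them, from which nothing is read since the gene was chosen on this contrast. Livers measured 1.04, 1.06, 0.748 and 0.353 CPM in HuBL, against 0.903, 2.31, 0.325 and 1.28 CPM in BT3xHuBL, on 4 to 28 counts, with a log2 fold change of 0.61 (SE 0.54). The liver genotypes overlapped. With 1 liver left out in turn the value ran from 0.10 (without BT3xHuBL liver 2, the highest) to 0.915 (without BT3xHuBL liver 3, the lowest).

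**Figure D3:**
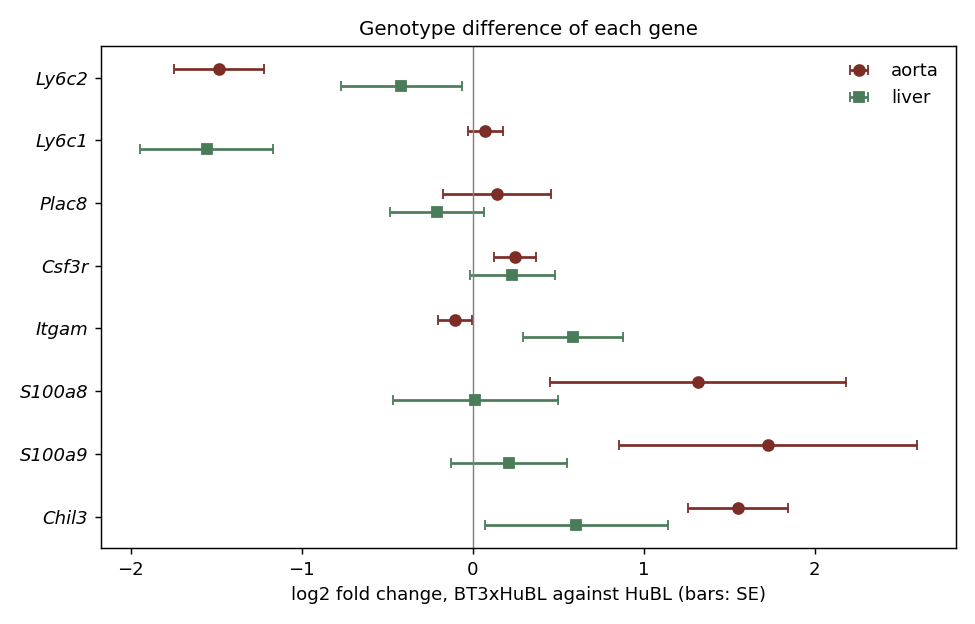
Log2 fold change of BT3xHuBL against HuBL for each gene in the aorta (circles) and the liver (squares), with bars for the SE. Ly6c2 lies at −1.48 in the aorta and Ly6c1 at −1.56 in the liver, and Chil3, S100a8 and S100a9 lie above 1 in the aorta.

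Whether the genotype difference itself differed between the tissues was fitted as an interaction over all 14 libraries. It called 0 of 14912 genes (0.0%) in edgeR, with 1217 at an unadjusted p under 0.05 (8.16%), and 0 of the 8, of which 3 (Ly6c2, Ly6c1 and Itgam) had an unadjusted p under 0.05. DESeq2 called 44 of 14889 genes (0.296%), Ly6c1 among them. Interaction values (the aorta minus the liver difference, log2) were 1.64 (SE 0.36) for Ly6c1, −1.05 (SE 0.49) for Ly6c2, −0.67 (SE 0.29) for Itgam, 1.31 (SE 0.92) for S100a8 and 1.53 (SE 0.82) for S100a9. Those for Chil3, Plac8 and Csf3r were 0.96 (SE 0.67), 0.37 (SE 0.43) and 0.03 (SE 0.29). These values come from the contrasts that were known when the genes were chosen and are given as a description.

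The tissues differed far more than the genotypes. In aorta against liver, edgeR (Benjamini-Hochberg adjusted p under 0.05) called 4 of the 8 genes in HuBL, all higher in the aorta, beside 83.0% of 14912 genes called in either direction and 44.0% called higher. In BT3xHuBL it called 6 of 8, all higher in the aorta, beside 83.1% and 43.3%. A call is therefore common among all genes in this comparison. The genes were chosen with the genotype differences in the aorta known, and both tissue contrasts use those aorta values. The calls of Chil3, S100a8 and S100a9 in BT3xHuBL alone, and of Ly6c2 in HuBL alone, are therefore a description. Tissue cannot be told apart from the sequencing depth and the table in which each tissue was deposited.

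The largest tissue differences of the set were those of Ly6c1 and Itgam. Ly6c1 was 59.8-fold higher in the aorta in HuBL, the linear form of a log2 fold change of 5.90 (SE 0.21, edgeR adjusted p = 8.35e-13). In BT3xHuBL it was 186-fold higher, a log2 fold change of 7.54 (SE 0.24, edgeR adjusted p = 2.66e-13). Itgam rose 47.6-fold in HuBL (log2 5.57, SE 0.20, edgeR adjusted p = 1.27e-12) and 29.9-fold in BT3xHuBL (4.90, SE 0.19, edgeR adjusted p = 2.83e-12). Csf3r rose in both genotypes, 4.18-fold (2.06, SE 0.21, edgeR adjusted p = 1.4e-07) and 4.26-fold (2.09, SE 0.20, edgeR adjusted p = 9.35e-08). Every aorta lay above every liver for these 3 genes and Chil3 in each genotype, and for Ly6c2 in HuBL. That makes 5 of the 8 genes in HuBL, beside 43.8% of all genes, and 4 of 8 in BT3xHuBL, beside 42.5%.

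Ly6c2, the monocyte form, was higher in the aorta in HuBL, by 2.03-fold (log2 1.02, SE 0.34, edgeR adjusted p = 0.0117), and had a log2 difference of −0.03 (SE 0.35, edgeR adjusted p = 0.933) in BT3xHuBL, a value whose sign depended on the scaling. The HuBL call was lost without HuBL aorta 2 (edgeR adjusted p = 0.0643). A fit with the replicate number as a block gave an edgeR adjusted p of 0.106. Its tissue contrast compares the fitted levels at replicate number 1, so it does not check the mean difference between the tissues. Chil3 rose 3.34-fold in BT3xHuBL aortas over livers (log2 1.74, SE 0.44, edgeR adjusted p = 0.00198); in HuBL the value was 0.79 (SE 0.48, edgeR adjusted p = 0.144). S100a8 and S100a9 rose 4.41-fold and 2.59-fold in BT3xHuBL (log2 2.14 and 1.37, SE 0.64 and 0.56, edgeR adjusted p = 0.00719 and 0.0364). In HuBL S100a8 gave 0.83 (SE 0.65) and S100a9 −0.15 (SE 0.59), with edgeR adjusted p = 0.252 and 0.815, and the sign of the latter also turned with the scaling. With limma-voom both BT3xHuBL calls of the S100 pair were lost (adjusted p = 0.0905 and 0.224). The S100a9 call was lost in edgeR with no low-count filter (adjusted p = 0.0512). It was also lost without BT3xHuBL aorta 1 (0.173), BT3xHuBL aorta 2 (0.0869), BT3xHuBL liver 2 (0.0719) or BT3xHuBL liver 3 (0.0949). The block fit gave edgeR adjusted p = 0.0757 and 0.142 for the pair, with the same limit as for Ly6c2.

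Plac8 had a lower mean in the aorta in both genotypes, with log2 differences of −0.65 (SE 0.31, edgeR adjusted p = 0.063) in HuBL and −0.29 (SE 0.30, edgeR adjusted p = 0.394) in BT3xHuBL. In HuBL every aorta lay below every liver, and the difference was called lower with DESeq2 (adjusted p = 0.0456), in a fit of the HuBL libraries alone (0.000104) and without BT3xHuBL aorta 1 (0.0286), BT3xHuBL aorta 3 (0.0412) or BT3xHuBL liver 3 (0.0221). In BT3xHuBL it was called lower without BT3xHuBL aorta 1 (edgeR adjusted p = 0.0394).

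**Figure D4:**
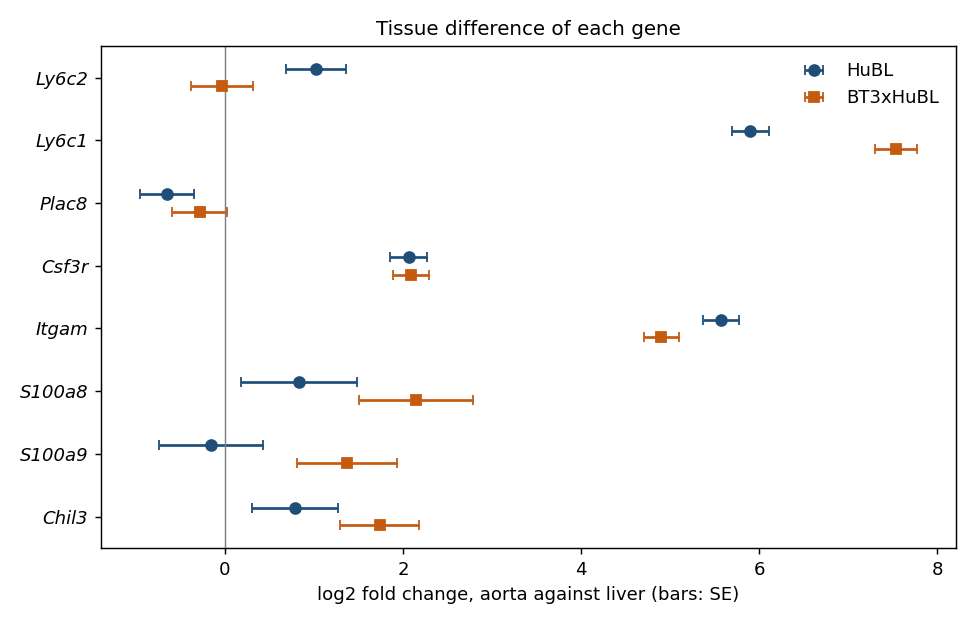
Log2 fold change of aorta against liver for each gene in HuBL (circles) and BT3xHuBL (squares), with bars for the SE. Ly6c1 and Itgam lie at 4.90 to 7.54, Csf3r at 2.06 and 2.09, and Plac8 below 0 in both genotypes.

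The order of the genes by level also differed between the tissues. In HuBL aortas Ly6c1 (134 ± 18.3 CPM, SD, n = 3) and Itgam (113 ± 14.7 CPM) stood far above the rest, and these neighbours did not differ beyond their spread. Csf3r (18.1 ± 2.31 CPM), Plac8 (14.9 ± 0.426 CPM) and Ly6c2 (9.01 ± 2.55 CPM) followed, then S100a8 and S100a9, whose ranges overlapped, and Chil3. In HuBL livers Plac8 came first at 23.4 ± 1.64 CPM (SD, n = 4), and S100a9 (4.60 ± 1.76 CPM), Ly6c2 (4.46 ± 0.999 CPM) and Csf3r (4.33 ± 0.731 CPM) overlapped. Itgam (2.32 ± 0.641 CPM) and Ly6c1 (2.31 ± 0.749 CPM) were sixth and seventh there. The BT3xHuBL order was another one. In its aortas Ly6c1, Itgam, Csf3r and Plac8 led again, S100a9 and S100a8 came next, and Chil3 and Ly6c2, whose ranges overlapped, were last. In its livers Plac8 (20.2 ± 8.20 CPM, SD, n = 4) was followed by S100a9, Csf3r, Itgam (3.51 ± 1.14 CPM), Ly6c2, S100a8 and Chil3, with overlap between each of these neighbours after Plac8, and Ly6c1 (0.772 ± 0.381 CPM) was last, overlapping Chil3. These levels are 3′ end counts, which need no correction for transcript length.

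Other genes that varied most like each member were sought over the 14 libraries. The measure was the root mean square difference of log2 CPM after centring each tissue. It includes both genotype and library effects and is a description. The search took 10782 genes with a mean of at least 1 CPM in both tissues. Scarcer genes, such as the neutrophil genes Retnlg and Ngp, could not appear. The members' own root mean square about the tissue mean ran from 0.30 (Csf3r) to 0.97 (S100a8), so the differences do not compare between members. For S100a8 the nearest gene was S100a9 (0.30) and the next Ppbp, a platelet chemokine (0.57), and S100a9 had the same neighbours in turn (0.30 and 0.54). Ly6c2 was nearest to Ms4a4b, a membrane protein of T cells (0.36), and Oas1g, an antiviral enzyme gene (0.46), whereas Ly6c1 was nearest to Nnmt, a nicotinamide methyltransferase (0.32), and Mb21d1, the DNA sensor cGAS (0.38). Plac8 was nearest to the receptor genes Lilra5 (0.22) and Fcgr4 (0.22), Csf3r to Gtdc1 (0.12) and Pram1 (0.15), Itgam to Tmem51 (0.16) and Gas6 (0.16), and Chil3 to Aoah, which detoxifies bacterial lipid A (0.48), and Siglece (0.53). Ly6c2 and Ly6c1 were not among each other's nearest 2 genes.

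Neutrophil granule and surface genes other than the 8 were then set beside them. Of 24 such genes 18 passed the low-count filter in the aorta. Their median log2 fold change was 0.64, with 16 above 0 and 2 under it, where 48.4% of all tested aorta genes lay above 0 and the median was −0.004. None was called by edgeR, and 2 of the 18 had an unadjusted p under 0.05, beside 4.08% of all genes tested. Genes near the filter may have passed through the group in which they are high, so the count is a description. Without BT3xHuBL aorta 3 it was 15 of 19 above 0 with a median of 1.11. The most abundant gene, Lcn2, an iron-binding granule protein that other cells also make, gave 0.01 (SE 0.16), and the lectin receptors Clec4d and Clec4e gave 0.09 (SE 0.13) and 0.45 (SE 0.19). The summed level was therefore alike, 135 to 195 CPM in HuBL and 179 to 181 CPM in BT3xHuBL aortas.

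From the neutrophil list, Retnlg and Ngp are given by library and were singled out after their values were seen. Retnlg, a resistin-like secreted protein, had 6, 31 and 30 counts in HuBL aortas and 114, 186 and 46 in BT3xHuBL aortas. Ngp, a granule protein of immature neutrophils, had 0 counts in each HuBL aorta and 85, 42 and 0 in the BT3xHuBL aortas. BT3xHuBL aortas 1 and 2 were thus the high libraries for S100a8, S100a9, Retnlg and Ngp. Ngp did not pass the low-count filter in the aorta. Other genes of the list did not rise there: Mmp8 gave −0.24 (SE 0.14), Il1r2 −0.42 (SE 0.39) and Trem1 0.02 (SE 0.26). In the liver 7 neutrophil genes were tested, 4 above 0 and 3 below with a median of 0.10. Of all tested liver genes 51.8% lay above 0. None of the 7 was called by edgeR, and 1 had an unadjusted p under 0.05, beside 11.1% of all genes tested. Above 0 were 6 of 8 without BT3xHuBL liver 3 and 3 of 8 without BT3xHuBL liver 4. The latter library held 731 CPM of Lcn2 where the other livers held 23.0 to 70.2 CPM.

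Classical monocyte genes lay on both sides of 0. Of 19 tested in the aorta 8 lay above 0 and 11 below, with a median of −0.03, none called by edgeR, and without BT3xHuBL aorta 3 it was 12 above and 7 below. At an unadjusted p under 0.05 were 5 of the 19 genes, beside 4.08% of all genes tested in the aorta. Of these Thbs1, Fn1 and Ms4a4c (−0.61, SE 0.26) lay lower in BT3xHuBL, and Cd14 (0.28, SE 0.10) and Ccl9 (0.30, SE 0.09) higher. Fn1 and Thbs1 averaged 9606 and 865 CPM in HuBL aortas, and which cells made them was not tested. Fn1 (fibronectin) gave −0.26 (SE 0.12), Lyz2 (lysozyme) −0.16 (SE 0.17), Thbs1 (thrombospondin) −0.49 (SE 0.14) and Ccr2, the chemokine receptor of classical monocytes, −0.15 (SE 0.37); the last was named beside the rule because Ly6c2 and Ccr2 mark the same cells. In the liver 8 of 18 lay above 0, with a median of −0.09, none called and 0 at an unadjusted p under 0.05. Of 14 nonclassical monocyte genes 9 lay above 0 in the aorta (median 0.11) and 5 in the liver (median −0.11), with Cd36, a scavenger receptor, at −0.06 (SE 0.22) in the aorta. edgeR called none of them in either tissue, with 1 at an unadjusted p under 0.05 in each.

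The families of the single members were followed in the same way. In the Ly6 family, leaving out Ly6c1 and Ly6c2, 4 of 7 tested genes lay above 0 in the aorta (median 0.02) and 1 of 4 in the liver (median −0.20), or 2 of 4 without BT3xHuBL liver 3, and edgeR called none. Ly6a (Sca-1), a neighbour of Ly6c1 that interferon induces, was at 267 ± 41.1 CPM in HuBL aortas and 274 ± 24.2 CPM in BT3xHuBL aortas (SD, n = 3 each). In the livers Ly6a measured 786 ± 166 CPM in HuBL and 266 ± 215 CPM in BT3xHuBL (SD, n = 4 each), or a log2 difference of −1.56 (SE 0.73, edgeR adjusted p = 0.474), and the genotypes did not overlap, with 582 CPM the lowest HuBL and 480.5 CPM the highest BT3xHuBL value. Among β2 integrins and adhesion genes, a list that holds Itgam, 4 of 14 lay above 0 in the aorta (median −0.07), with Itgax at −0.14 (SE 0.12) and Vcam1 at −0.28 (SE 0.14). Of other S100 proteins and their receptors 5 of 12 lay above 0 (median −0.03), with S100a6 at −0.09 (SE 0.16) and S100a4 at −0.05 (SE 0.26), and of myeloid growth factor receptors and transcription factors 10 of 14 (median 0.05), with Csf1r at 0.08 (SE 0.10) and Csf2rb at 0.02 (SE 0.08). Chitinase-like and alternative activation genes had 8 of 12 above 0 in the aorta (median 0.08), with Mrc1, the mannose receptor, at 0.16 (SE 0.21). edgeR called no gene of these lists in either tissue, and each had 0 or 1 gene at an unadjusted p under 0.05 in a tissue.

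Between the tissues the lists differed among themselves, beside 44.0% of all genes called higher in the aorta in HuBL and 43.3% in BT3xHuBL. In HuBL edgeR called 12 of 14 adhesion genes higher in the aorta and 2 lower, 10 of 13 growth factor receptors and transcription factors higher and 3 lower, and 12 of 19 classical monocyte genes higher and 4 lower. Of 16 neutrophil genes it called 6 higher and 5 lower in HuBL, and 7 higher and 3 lower in BT3xHuBL. The Ly6 family ran against Ly6c1: of 6 tested genes 1 was called higher and 4 lower in the aorta in HuBL, with Ly6e, a relative induced by interferon, at −3.12 (SE 0.15).

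**Figure D5:**
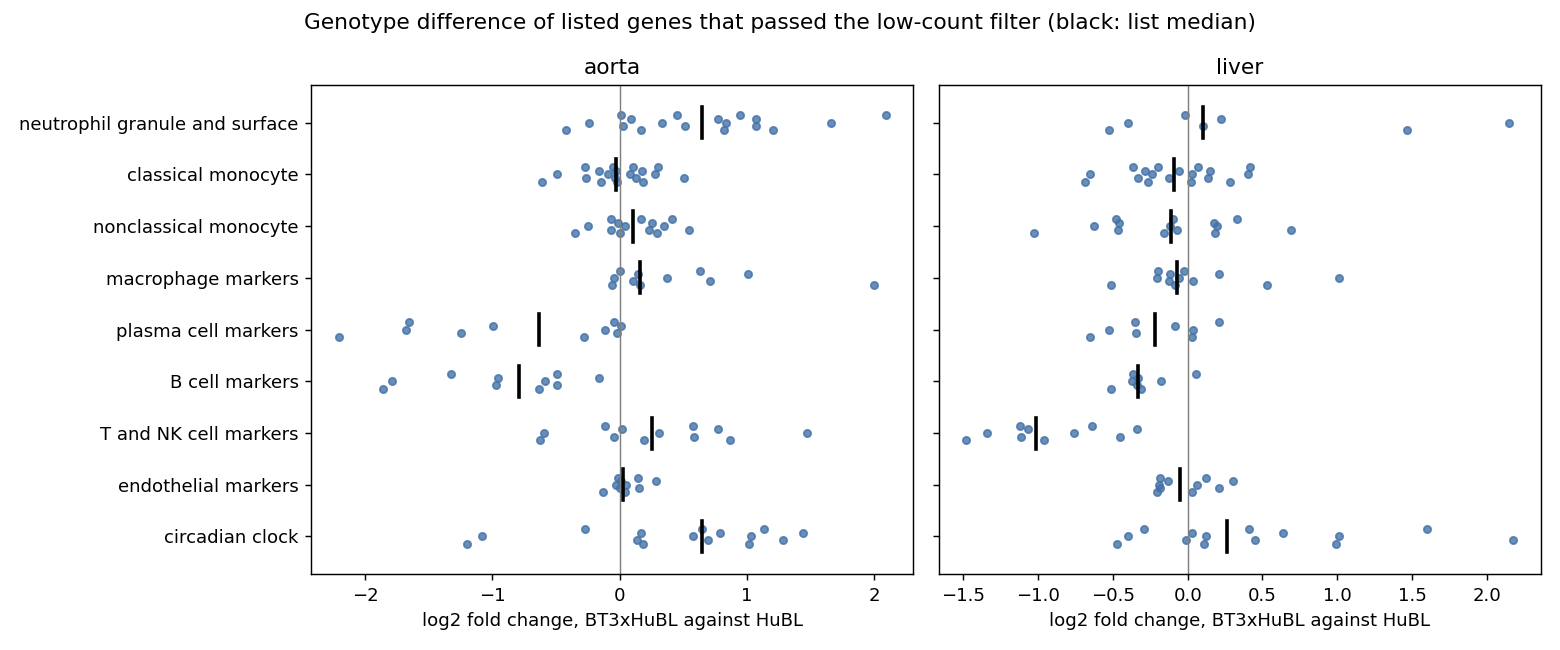
Log2 fold change of BT3xHuBL against HuBL for the tested genes of 9 lists in the aorta (left) and the liver (right), with 1 point per gene and a black bar at the list's median. Neutrophil genes have a median of 0.64 in the aorta with a wide spread, classical monocyte genes centre near 0, and B cell and plasma cell genes lie below 0 in the aorta.

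Markers of other cell types were examined in the same libraries. edgeR called no B, plasma, T, natural killer, dendritic or endothelial cell gene of these lists between genotypes in either tissue. In the aorta 4.08% of all genes had an unadjusted p under 0.05. Among the lists it was 3 of 10 B, 4 of 10 plasma, 2 of 8 conventional dendritic and 1 of 12 T and natural killer cell genes. In the liver, beside 11.1% of all genes, it was 6 of 10 T and natural killer and 3 of 4 plasmacytoid dendritic cell genes. It was also 1 of 8 plasma and 1 of 10 endothelial cell genes there. In the aorta, where Ly6c2 lay lower in BT3xHuBL, 7 of 8 conventional dendritic cell genes were below 0 (median −0.35; summed level 20.2 to 22.2 CPM in HuBL and 14.03 to 17.1 CPM in BT3xHuBL), or 6 of 8 without BT3xHuBL aorta 3. Of the B cell genes 10 of 10 were below 0 (median −0.79; summed level 38.5 to 48.9 CPM in HuBL and 31.1 to 37.2 CPM in BT3xHuBL) and 9 of 10 plasma cell genes (median −0.63; 638 to 952 CPM and 409 to 527 CPM). Igkc, the antibody kappa constant part, gave −2.21 (SE 0.55) and Cd79b, a B cell receptor chain, −0.64 (SE 0.20). Of all genes tested in the liver 51.8% lay above 0, with a median of 0.009. In the liver, where Ly6c1 lay lower, 10 of 10 T and natural killer cell genes were below 0 (median −1.01; 19.2 to 43.5 CPM in HuBL and 14.6 to 20.2 CPM in BT3xHuBL), or 10 of 11 without BT3xHuBL liver 3, as were 4 of 4 plasmacytoid dendritic cell genes (median −0.50; 843 to 998 CPM and 582 to 666 CPM). These cells express Ly6C, but most of that sum was Bst2 (means of 833 and 555 CPM) and most of the rest Tcf4 (75.1 and 56.2 CPM), which other cells also make, while Siglech, their defining marker, was at 1.64 and 0.783 CPM. In the livers Cd4 gave −1.34 (SE 0.36) and Bst2 −0.58 (SE 0.10). Endothelial genes, which bear on Ly6c1, had a median of 0.03 in the aorta and −0.05 in the liver, with 878 to 950 CPM in HuBL and 901 to 978 CPM in BT3xHuBL aortas and 145 to 171 CPM and 137 to 203 CPM in the livers. In the liver 7 of 8 B cell genes (median −0.33) and 5 of 8 plasma cell genes (median −0.22) were below 0. So were 4 of 5 conventional dendritic cell genes there (median −0.31). T and natural killer cell genes had 8 of 12 above 0 in the aorta (median 0.25). Plasmacytoid dendritic cell genes had 4 of 7 above 0 in the aorta (median 0.04). The part of B, plasma, T, natural killer and dendritic cells in the results for Ly6c2 and Ly6c1 was not tested.

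Beside S100a8, S100a9 and Chil3, which lay higher in BT3xHuBL aortas, 9 of 11 macrophage genes lay above 0 (median 0.16; 2127 to 2581 CPM in HuBL and 2327 to 2473 CPM in BT3xHuBL). Blood in the tissue could not be read from globin, since Hba and Hbb features carry a mark for overlapping genes and are listed at 0 in all libraries. The other red cell genes were 3 of 3 above 0, with summed levels of 5.21, 5.79 and 3.53 CPM in HuBL aortas and 11.7, 7.49 and 3.83 CPM in BT3xHuBL aortas; the 2 aortas high in S100a8 and S100a9 were the highest here too. Hepatocyte genes summed to 19.9, 26.6 and 16.4 CPM in HuBL aortas and 50.6, 46.1 and 30.4 CPM in BT3xHuBL aortas, groups that did not overlap and again with the same 2 aortas highest. Most of that sum was Cyp2e1 (means of 16.1 and 36.3 CPM; log2 1.17, SE 0.31), a cytochrome that fat tissue also makes, while albumin (Alb) was at 0.196 and 0.0409 CPM. Adipocyte genes were 8 of 8 above 0 (median 0.38), with summed levels of 419 to 589 CPM in HuBL and 554 to 758 CPM in BT3xHuBL aortas. Of 15 circadian clock genes 12 lay above 0 in BT3xHuBL aortas (median 0.65), and 1, Dbp, was called (log2 1.44, SE 0.13, edgeR adjusted p = 0.0089). At an unadjusted edgeR p under 0.05 were 12 of the 15, beside 4.08% of all genes tested in the aorta. Without BT3xHuBL aorta 3 edgeR called 8 of the 15, beside 0.172% of all genes tested. Their part in the results for S100a8, S100a9 and Chil3 was not tested.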

How the data were processed

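RNA of 6 aorta and 8 liver libraries was measured; tissue and genotype labels set the groups. Per the labels' protocols, Lexogen QuantSeq V2 was used, whose reads lie close to the 3′ ends of transcripts. The files the authors deposited hold raw counts for each feature. The submitters' processing notes name HTSeq 2.0 and GRCm38; aligner, strand setting and annotation: not given in the sources used here. Coordinates in the tables did not match GENCODE M21 (GRCm38) and are not printed. Libraries of a group differed by more than sampling noise (chi-square over degrees of freedom 12.9 to 80.3).

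The 8 genes and all gene lists were chosen with earlier results of these data known. Tests used edgeR 4.0.16 (R 4.3.3): genes kept by filterByExpr, TMM scaling, a two-sided quasi-likelihood F-test with robust weights, Benjamini-Hochberg adjustment over all genes tested, threshold 0.05 and a prior count of 0.125. Genotype was fitted in each tissue alone, tissue and interaction over all 14 libraries. CPM are the deposited counts scaled to a common total (TMM over all 14 libraries), and an SE is the log2 fold change divided by the root of F. Named genes are the 8, the 3 of each pathway list and the 2 of each other cell type list of highest aorta level (some given by their list's range alone), called genes, and the 2 nearest genes of each member (prior count 2, mean of at least 1 CPM). Jchain, Adgre1, Adgre4, Siglecf, Ciart and Ly6m were matched by older symbols; Ly6g, Sirpb1c and Hbb-bt are not analysed here. As alternatives, results were recomputed under RLE and upper quartile scaling, with DESeq2 1.42.0 and limma-voom (limma 3.58.1), with the low-count filter dropped or replaced by a mean of 5 CPM or more, with no robust weights, with other libraries in the fit, with a replicate block and with each library left out. The scripts were tested on simulated counts. Transcripts were aligned with Biopython 1.88.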

Additional observations from a re-analysis of the deposited data

Results flagged for a closer look

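In groups of 4 libraries, 24 sets of values were examined for a library whose gap to its nearest neighbour was large against the range of the group; 3 stood out, where chance flags about 1 in 20 groups, and the aorta groups of 3 could not be examined. Plac8 in HuBL liver 4, at 20.99 CPM, lay below the other HuBL livers, which were within 24.1 to 24.5 CPM. In BT3xHuBL liver 4 the summed level of the neutrophil list was 760.3 CPM, where the other BT3xHuBL livers had 34.5 to 75.2 CPM, and 731 CPM of it was Lcn2. The same library had a summed classical monocyte level of 23470 CPM, against 13470 to 14480 CPM in the other BT3xHuBL livers, and 15410 CPM of it was Hp, the acute phase protein haptoglobin made by hepatocytes. None of the 8 genes was highest among the BT3xHuBL livers in that library.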

How the results depend on the processing

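The counts of genes called between genotypes moved with the method. In the aorta 4 genes were called by edgeR, 68 by DESeq2 (30 higher, 38 lower), 0 by limma-voom, 9 with no low-count filter and 0 to 27 with 1 library left out, 27 being without BT3xHuBL aorta 3, 2 without HuBL aorta 1 and 0 without HuBL aorta 2 or 3. In the liver 0 were called by edgeR, 133 by DESeq2 (35 higher, 98 lower), 5 in a fit of both tissues and 0 to 5 with 1 library left out (5 without BT3xHuBL liver 2, 2 without BT3xHuBL liver 3). The interaction called 0 genes, 44 with DESeq2 and 0 to 3 with 1 library left out. The cause was not tested.

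Replicate numbers are shared between genotypes, but same-numbered libraries did not deviate together: correlations of their deviations were −0.06, 0.14 and 0.01 in the aorta and −0.04, 0.16, 0.10 and 0.07 in the liver. With the replicate number as a block 14 aorta genes and 10 liver genes were called, none of the 8 among them, and 10771 and 10672 genes between tissues in HuBL and BT3xHuBL.

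Upper quartile scaling moved the median tissue difference of all genes from 0.10 to 0.29 in HuBL and from 0.07 to 0.25 in BT3xHuBL. Among the tissue differences of the set 2 turned sign, both close to 0. S100a9 in HuBL was −0.15, 0.044 with upper quartile scaling and −0.90 to 0.15 with 1 library left out. Ly6c2 in BT3xHuBL was −0.03, 0.009 with RLE scaling, 0.15 with upper quartile scaling, 0.008 with DESeq2, 0.076 with limma-voom, 0.001 with no filter, 0.072 with a mean of at least 5 CPM and −0.27 to 0.32 with 1 library left out. In the livers 4 to 32 counts per library lie behind Ly6c1 and Chil3, so their liver values rest on few reads.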
